A study of Mus musculus with 6 samples.

Results

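The genes described here are Mest, Peg3, Usp29, Zim1, Plagl1, Peg10, Sgce, Nnat, Impact and Grb10, a group of 10 imprinted genes that lie outside the imprinted clusters of distal mouse chromosome 7. They were found by gene symbol: 22 of the 45037 probe sets that are not array controls carried 1 of these names alone, and the 10 genes stood among 18193 genes with a named probe set. The number of probe sets per gene ran from 1 (Mest, Zim1, Peg10, Nnat) to 5 (Peg3).

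The measurements come from lung cells of 4-month-old female mice of a mixed Bl6/129 background, with 3 Affymetrix Mouse Genome arrays labelled Bmi1 mutant (genotype Bmi1 null) and 3 labelled Bmi1 wild type. Cells without CD31 and CD45 on their surface were sorted by flow cytometry and were not cultured, and their RNA was amplified before hybridisation. The labels name biological replicates without saying whether an array is 1 mouse or a pool, so each p describes only the variation among these arrays, which may be technical. They do not say how the Bmi1 allele was made. BMI1 is a Polycomb protein that helps to keep genes silent. The comparison asks which genes have another RNA level in lung cells lacking normal Bmi1.

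An imprinted gene is read mainly from the copy of 1 parent, because a control region of its domain was methylated in the germ line of 1 parent and keeps that mark in body cells. Depending on the domain, the marked copy is the silent or the active one for a given gene. Many imprinted genes control growth before and after birth, and a set of them is known to be expressed together in growing mesenchymal tissue and to fall in level as an animal matures. Mest, Peg3, Usp29, Plagl1, Peg10, Sgce, Nnat and Impact are known to be read from the paternal copy in the mouse. Zim1 is known as a maternally expressed neighbour of Peg3, and Grb10 is read from the maternal copy in most mouse tissues and from the paternal copy in brain. The group therefore holds both kinds, and these arrays measure RNA from both copies together.

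By the RefSeq annotation of assembly GRCm38.p6, Zim1 (chr7:6674444-6696540), Peg3 (chr7:6703892-6730462) and Usp29 (chr7:6730559-6967220) lie side by side on proximal chromosome 7, and Peg3 and Usp29 are read away from each other with 96 bases between them. Sgce (chr6:4674350-4747204) and Peg10 (chr6:4747306-4760517) form a similar pair with 101 bases between them. Mest (chr6:30733506-30748466), Plagl1 (chr10:13090832-13131694), Nnat (chr2:157560078-157562525) and Grb10 (chr11:11930499-12037428) lie apart, as does Impact.

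RefSeq start-site windows, 250 bases before to 50 bases after the annotated start, were used for 7 of the 10 genes. Sgce and Peg10 have none here, and the chromosome of Impact was left out of the search. The windows of Mest, Peg3 and Plagl1 are printed because these genes carry the main values below. They are given 5′ to 3′ on the gene's strand, and capitals mark a match on either strand to TGCCGC (the core bound by the imprint-keeping protein ZFP57), GGGGCCCC (the core bound by PLAGL1) or AANATGG (the core of YY1).
Mest, downstream start, chr6:30737800-30738099, plus strand: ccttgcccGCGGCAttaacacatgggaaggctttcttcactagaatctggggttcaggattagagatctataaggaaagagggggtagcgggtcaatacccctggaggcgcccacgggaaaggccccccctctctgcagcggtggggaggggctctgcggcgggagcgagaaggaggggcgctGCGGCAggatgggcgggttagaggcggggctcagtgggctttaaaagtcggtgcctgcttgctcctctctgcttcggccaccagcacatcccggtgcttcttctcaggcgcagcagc
Peg3, chr7:6730370-6730669, minus strand: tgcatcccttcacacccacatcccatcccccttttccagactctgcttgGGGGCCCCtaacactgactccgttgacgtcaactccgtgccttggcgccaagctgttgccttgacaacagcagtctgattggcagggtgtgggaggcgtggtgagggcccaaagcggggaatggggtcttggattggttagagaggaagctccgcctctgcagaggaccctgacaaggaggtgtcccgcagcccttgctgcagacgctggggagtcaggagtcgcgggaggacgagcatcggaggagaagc
Plagl1, chr10:13090582-13090881, plus strand: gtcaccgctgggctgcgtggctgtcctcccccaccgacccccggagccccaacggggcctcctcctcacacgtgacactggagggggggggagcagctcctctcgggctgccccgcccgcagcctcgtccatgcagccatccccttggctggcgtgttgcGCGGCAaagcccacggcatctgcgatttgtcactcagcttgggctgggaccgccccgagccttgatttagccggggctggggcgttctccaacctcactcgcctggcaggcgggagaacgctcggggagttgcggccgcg

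The printed Mest window held 17 CG pairs and 2 matches to TGCCGC, as did another window shifted by 3 bases, whereas the window at the gene's upstream start (chr6:30733256-30733555) held 8 CG pairs and 0 matches. The Plagl1 window held 26 CG pairs and 1 such match, and the Peg3 window held 13 CG pairs and none. Across the 32817 start-site windows of the table the median was 7 CG pairs, and 11.6% held TGCCGC. Among the 7 genes with a window, Mest, Zim1, Plagl1, Nnat and Grb10 (5 of 7) held it in at least 1 window. That counts genes, some with several windows, and 11.6% is a share of windows, so the values are not alike. TGCCGC itself contains a CG pair, and the windows of these genes that held it had 17 to 45 CG pairs. Whether the motif is more common than their CG content gives was not tested. The Peg3 and Usp29 windows overlap by 263 bases and share the same GGGGCCCC site, at chr7:6730613-6730620, a motif that 1.07% of all windows held. AANATGG, held by 16.1% of all windows, was found in a window of Nnat and of Grb10. These matches describe letters only, and neither binding nor methylation was measured.

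Mest also carries the microRNA miR-335 inside the gene, at chr6:30741314-30741336 for its 5p arm. It is shown because it shares the Mest transcript, with its seed (bases 2 to 8) in capitals, and its level was not analysed here.
mmu-miR-335-5p: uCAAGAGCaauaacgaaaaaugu

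The Bmi1 probe sets do not mark the mutant arrays. Probe set 1417493_at read 1276, 1498 and 1565 in mutant arrays and 996, 980 and 1164 in wild-type arrays, and 1448733_at read 637, 535 and 824 in mutant arrays and 545, 535 and 684 in wild-type arrays. Neither was lower in the mutant-labelled arrays, and whether the probes lie outside a deleted part is not given in the sources used here, so the directions rest on the labels. Markers of cell types that the sort was meant to leave out were bright in all arrays: Ptprc, which encodes CD45, read 5767 ± 852 in mutant and 7716 ± 966 in wild type, and Pecam1, which encodes CD31, read 2939 ± 247 in mutant and 2247 ± 507 in wild type (SD, n = 3 each).

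In the Bmi1 mutant arrays, Mest rose to a mean signal 3.92 times that of wild type and was called at the gene level, while the other 9 genes were not called. Peg3, Plagl1 and Usp29 read higher in all 3 mutant arrays than in any wild-type array, and Impact, in the probe set that stands for it, read lower in all 3. Grb10 and Sgce had higher means with overlapping arrays, and Peg10, Nnat and Zim1 differed by 0.22 or less in size on the log2 scale. Differences are of log2(signal + 16), mutant minus wild type, tested with limma, and a gene was called at a Benjamini-Hochberg adjusted p under 0.05 over all genes. By this rule 1 of the 10 genes was called higher, against 0.412% of all genes, and 0 were called lower, against 0.511%. At an unadjusted p under 0.05 in the limma fit there were 4 of 10, against 14.5% of all genes. The arrays did not overlap in the higher direction for 4 of 10 (10.4% of all genes) and in the lower direction for 1 of 10 (10% of all genes). The median difference of the 10 genes was 0.32, against 0.006 over all 18193 genes, and the members ran from -0.93 to 1.95. These 10 genes were chosen with results of these data known, so their counts are a description of the group.

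**Figure D1:**
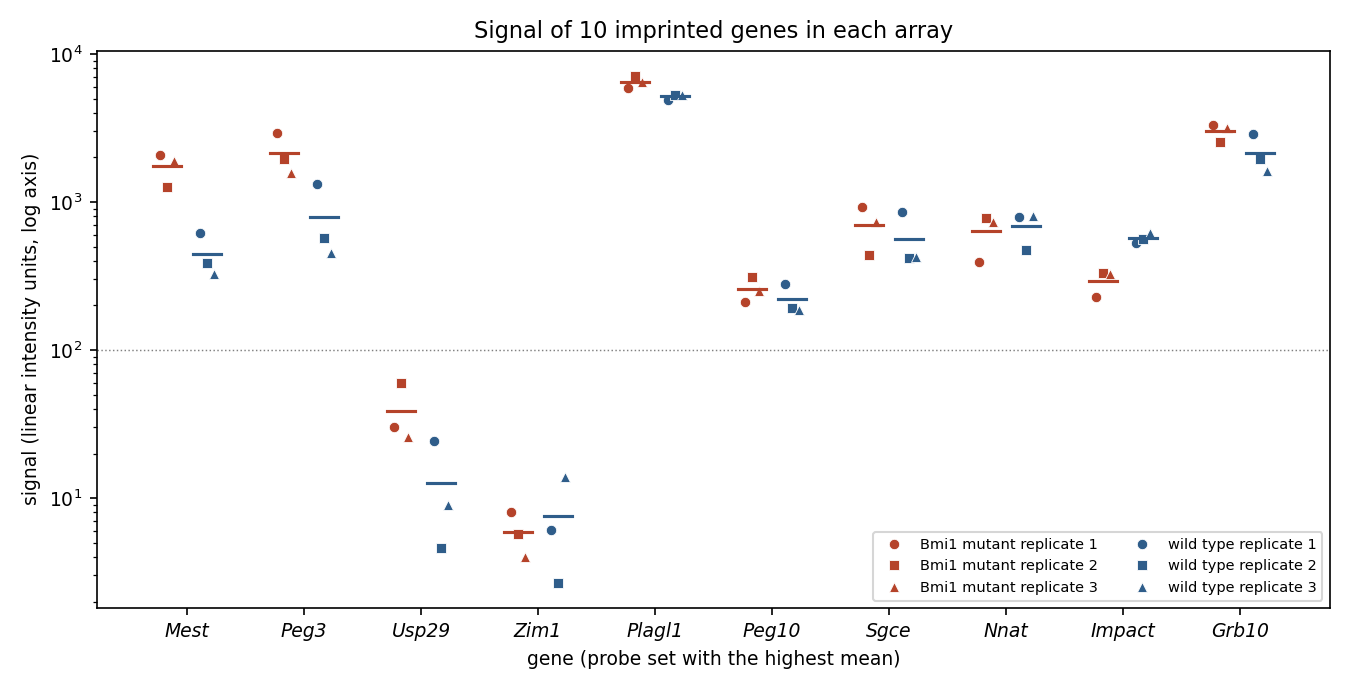
Signal of each gene's brightest probe set on a log axis, in linear intensity units. Points are single arrays, with Bmi1 mutant left of wild type in each gene and marker shape giving the replicate, bars are means of 3 arrays, and the dotted line is a signal of 100. The mutant points lie above all wild-type points for Mest, Peg3, Usp29 and Plagl1 and below them for Impact.

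Mest encodes a membrane enzyme of the alpha/beta hydrolase fold, known for high expression in embryonic mesoderm and in expanding fat. Its single probe set (1423294_at) read 2075, 1271 and 1889 in mutant replicates 1 to 3, and 618, 390 and 327 in wild-type replicates 1 to 3. The lowest mutant array read more than the highest wild-type array. The means were 1745 ± 421 in mutant and 445 ± 153 in wild type (SD, n = 3 each), and the log2 difference was 1.95 ± 0.30 (SE, 95% interval 1.25 to 2.65), with a limma adjusted p of 0.0410. Over all genes, 63 had a greater rise (0.346% of 18193). The call depended on the number of features tested and on each array: the same probe set had an adjusted p of 0.0657 in the fit over 45037 probe sets. Leaving out any of the 6 arrays gave a gene-level difference of 1.77 to 2.21 with an adjusted p of 0.0528 (without wild-type replicate 1) to 0.163 (without wild-type replicate 2).

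The Peg3 domain holds a zinc finger gene (Peg3), a ubiquitin-specific protease gene (Usp29) and a further zinc finger gene (Zim1). Peg3 encodes a large nuclear protein known for roles in body growth, maternal care and stem cells of several tissues. Its brightest probe set (1433924_at) read 2941, 1942 and 1568 in mutant replicates 1 to 3, and 1328, 575 and 454 in wild-type replicates 1 to 3. The arrays did not overlap, and wild-type replicate 1 was the closest to the mutant arrays. The means were 2150 ± 710 in mutant and 786 ± 473 in wild type (SD, n = 3 each). The log2 difference was 1.54 ± 0.43 (SE, limma adjusted p = 0.173). Without wild-type replicate 1 the difference was 1.99 (adjusted p = 0.0702), and without wild-type replicate 3 it was 1.23 (adjusted p = 0.384). It was 0.94 as the mean of the 5 probe sets (adjusted p = 0.155), of which 3 reached a mean signal of 100 in a genotype. With the mean level of fibroblast genes as a term in the fit it was 0.58 (adjusted p = 0.921). That term largely followed genotype, as given below with the cell type markers. The smallest adjusted p of Peg3 was 0.0657, with a trended robust prior in limma. It was called in 0 of 17 alternatives at the same threshold.

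The other bright Peg3 probe sets ran the same way. Probe set 1417356_at read 2041, 1196 and 1170 in mutant arrays and 808, 405 and 599 in wild-type arrays, a log2 difference of 1.26 ± 0.33 (SE, limma adjusted p over probe sets 0.182). Probe set 1417355_at read 571, 319 and 482 in mutant arrays and 369, 86.0 and 129 in wild-type arrays, a difference of 1.37 ± 0.50, and there wild-type replicate 1 lay above mutant replicate 2. In all 3 bright probe sets wild-type replicate 1 was the highest of its group. The remaining pair, 1447731_at and 1447732_x_at, read at most 8.01 and 24.9 in any array and differed by 0.11 and 0.43, so they add no measured level of Peg3.

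Usp29 was dim throughout. Its probe set 1427551_at read 30.1, 59.9 and 25.8 in mutant arrays and 24.2, 4.59 and 9 in wild-type arrays, a difference of 0.94 ± 0.33 (SE, limma adjusted p = 0.263). The arrays did not overlap, but the lowest mutant and the highest wild-type array read almost the same. As the mean of both probe sets the Usp29 difference was 0.47 (adjusted p = 0.487), and with the fibroblast term it was 0.55 (adjusted p = 0.926). The other Usp29 probe set (1419237_at) read 1.5, 3.63 and 33.4 in mutant arrays and 18.1, 12.6 and 1.58 in wild-type arrays, with no separation and a difference of -0.005. Zim1 read 8.08, 5.70 and 4.00 in mutant arrays and 6.13, 2.69 and 14.0 in wild-type arrays (difference -0.08 ± 0.22, adjusted p = 0.909). The sign of the Zim1 difference turned to 0.013 with median centring, and no direction can be given for it. Signals this low lie near the offset of 16, where the log2 scale understates any fold.

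Plagl1 encodes a zinc finger transcription factor, also called ZAC1, that halts the cell cycle when overexpressed and is known to regulate other imprinted genes. All 3 of its probe sets read higher in every mutant array than in any wild-type array. The brightest (1426208_x_at) read 5881, 7087 and 6448 in mutant arrays and 4919, 5268 and 5288 in wild-type arrays, a difference of 0.32 ± 0.16 (SE, limma adjusted p = 0.409). Probe set 1450533_a_at read 831, 1050 and 1096 in mutant arrays and 681, 497 and 710 in wild-type arrays, a difference of 0.65 ± 0.22 (adjusted p over probe sets 0.277). Probe set 1438588_at read 274, 299 and 326 in mutant arrays and 212, 198 and 190 in wild-type arrays, a difference of 0.55 ± 0.17 (adjusted p over probe sets 0.246). As the mean of the 3 probe sets the Plagl1 difference was 0.51 (adjusted p = 0.202). The differences were small beside that of Mest, and no probe set passed the test. Over all probe sets, 8.11% had arrays that did not overlap in this direction.

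Plag1, the relative of Plagl1 known as an oncogene of salivary gland tumours and an activator of Igf2, was called higher. It was the called gene among 12 measured relatives of the 10 genes, against 0.412% of all genes called higher. Its probe set 1443943_at read 64.1, 103 and 93.8 in mutant arrays and 21.4, 23.1 and 9.98 in wild-type arrays, a gene-level difference of 1.60 (limma adjusted p = 0.0407). Its other probe set, 1421745_at, overlapped between the genotypes, with 34.4, 46.5 and 63.5 in mutant arrays and 57.5, 21.1 and 21.7 in wild-type arrays. Both lie near a signal of 100 or below. The Plag1 call was lost without any of the 6 arrays, with differences of 0.44 (without mutant replicate 2) to 1.70 (without wild-type replicate 2), and leaving out mutant replicate 1 or 2 made the other probe set the brighter one.

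Sgce and Peg10, the head-to-head pair of chromosome 6, had small differences that were not called and moved with single arrays. Peg10 encodes a protein derived from a retrotransposon that the placenta needs. It read 212, 310 and 249 in mutant arrays and 280, 193 and 186 in wild-type arrays, a difference of 0.22 ± 0.23 (SE, limma adjusted p = 0.729, 95% interval -0.32 to 0.75). Sgce encodes epsilon-sarcoglycan, a membrane protein of the dystrophin-linked complex that is mutated in the human movement disorder myoclonus-dystonia. Its bright probe set (1420688_a_at) read 929, 440 and 727 in mutant arrays and 854, 418 and 424 in wild-type arrays, a difference of 0.32 ± 0.37 (adjusted p = 0.764, 95% interval -0.57 to 1.20). For both genes wild-type replicate 1 read above at least 1 mutant array. Leaving out 1 array at a time, Peg10 ran from 0.08 (without mutant replicate 2) to 0.39 (without wild-type replicate 1) and Sgce from 0.08 (without mutant replicate 1) to 0.65 (without wild-type replicate 1). The other Sgce probe set (1443518_at) read at most 29.8 and differed by -0.05. The intervals of both genes leave room for a change of the size seen in Plagl1 and not for one of the size seen in Mest.

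Sgce was also set beside the other genes of the sarcoglycan and dystrophin complex, which anchors the cell's skeleton to the matrix. Of 11 measured genes 9 lay above 0 and 0 were called (limma). Arrays did not overlap in the higher direction for 5 (10.4% of all genes) and in the lower for 0 (10% of all genes), and 3 had an unadjusted p under 0.05 (14.5% of all genes). Their median difference was 0.22. The smallest p belonged to Sgcd, delta-sarcoglycan, with 380 ± 17.7 in mutant and 163 ± 114 in wild type (SD, n = 3 each, difference 1.33, adjusted p = 0.201), and to Sspn, sarcospan, with 676 ± 161 in mutant and 359 ± 91.2 in wild type (difference 0.88, adjusted p = 0.201). Without wild-type replicate 1 Sgcd had a difference of 1.81 (adjusted p = 0.0450). With the fibroblast term Sgcd was at 0.54 (adjusted p = 0.927) and Sspn at 0.38 (adjusted p = 0.926), and smooth muscle markers, whose cells use this complex, were higher in mean in mutant arrays for 17 of 18 genes. Their part in these values was not tested.

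Nnat encodes neuronatin, a small membrane protein of the endoplasmic reticulum that is best known from neurons and endocrine cells and acts on calcium handling. Its single probe set read 393, 784 and 734 in mutant arrays and 798, 470 and 802 in wild-type arrays. The lowest array was a mutant one and the highest a wild-type one, the groups overlapped, and the difference was -0.13 ± 0.33 (SE, limma adjusted p = 0.902). Without mutant replicate 1 the sign turned (0.17). Nnat lies within an intron of Blcap, a neighbour that read 1668 ± 160 in mutant and 1115 ± 48.1 in wild type (SD, n = 3 each), a difference of 0.57 (adjusted p = 0.172).

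Grb10 encodes an adaptor that binds the insulin and IGF1 receptors and damps their signal. All 3 of its probe sets had a higher mean in mutant arrays. The brightest (1425458_a_at) read 3296, 2546 and 3167 in mutant arrays and 2887, 1954 and 1619 in wild-type arrays, a difference of 0.51 ± 0.25 (SE, limma adjusted p = 0.414). Probe set 1430164_a_at read 299, 221 and 288 in mutant arrays and 215, 102 and 119 in wild-type arrays, a difference of 0.87 ± 0.29 (adjusted p over probe sets 0.273). Probe set 1425457_a_at read 173, 156 and 277 in mutant arrays and 156, 145 and 80.0 in wild-type arrays, a difference of 0.61 ± 0.31 (adjusted p over probe sets 0.467). Only 1430164_a_at separated the genotypes, narrowly, and wild-type replicate 1 was the highest wild-type array in all 3. Without wild-type replicate 3 the gene-level Grb10 difference was 0.33 (adjusted p = 0.707). Among 15 measured partners of the 10 genes' proteins, such as receptors and kinases they bind or restrain, 0 were called, with a median difference of 0.09. At an unadjusted p under 0.05 in the limma fit there was 1, against 14.5% of all genes. The IGF1 receptor gene Igf1r had the smallest p, with 2287 ± 168 in mutant and 1389 ± 547 in wild type (SD, n = 3 each, difference 0.78, adjusted p = 0.268). Its difference was -0.015 in the probe set of greatest variance (1446303_at), which read at most 56.7 in any array. The remaining Igf1r probe sets had differences of 0.25 to 0.70. Igf1r was followed by Nedd4, a ubiquitin ligase that binds Grb10 (difference 0.27, adjusted p = 0.535).

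Impact encodes an inhibitor of the stress kinase GCN2 and is best known from neurons. It lies at chr18:12954690-12992950. Its probe sets disagreed. Probe set 1446750_at, the brightest, read 227, 331 and 324 in mutant arrays and 527, 565 and 617 in wild-type arrays. Every mutant array lay below every wild-type array, the means were 294 ± 58.3 in mutant and 570 ± 45.0 in wild type (SD, n = 3 each), and the difference was -0.93 ± 0.20 (SE, 95% interval -1.40 to -0.47, limma adjusted p = 0.0938). Over all genes, 483 had a greater fall (2.65%). Probe set 1446751_s_at was dim, with 5.83, 4.78 and 43.8 in mutant arrays and 40.2, 35.7 and 47.4 in wild-type arrays, a difference of -0.92 ± 0.41 with overlap. Probe set 1415911_at read 263, 229 and 201 in mutant arrays and 243, 192 and 187 in wild-type arrays, a difference of 0.14 ± 0.20 (adjusted p over probe sets 0.814). The 95% interval of the last (-0.32 to 0.61) does not meet that of 1446750_at in the same probe-set fit (-1.42 to -0.44). The annotation used here gives the same source sequence for 1446750_at and 1446751_s_at, so their falls are not separate readings, and another for 1415911_at. It does not say which part of the transcript each probe set reads, so no single direction is given for Impact. As the mean of its 3 probe sets Impact was at -0.57 (adjusted p = 0.225).

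**Figure D2:**
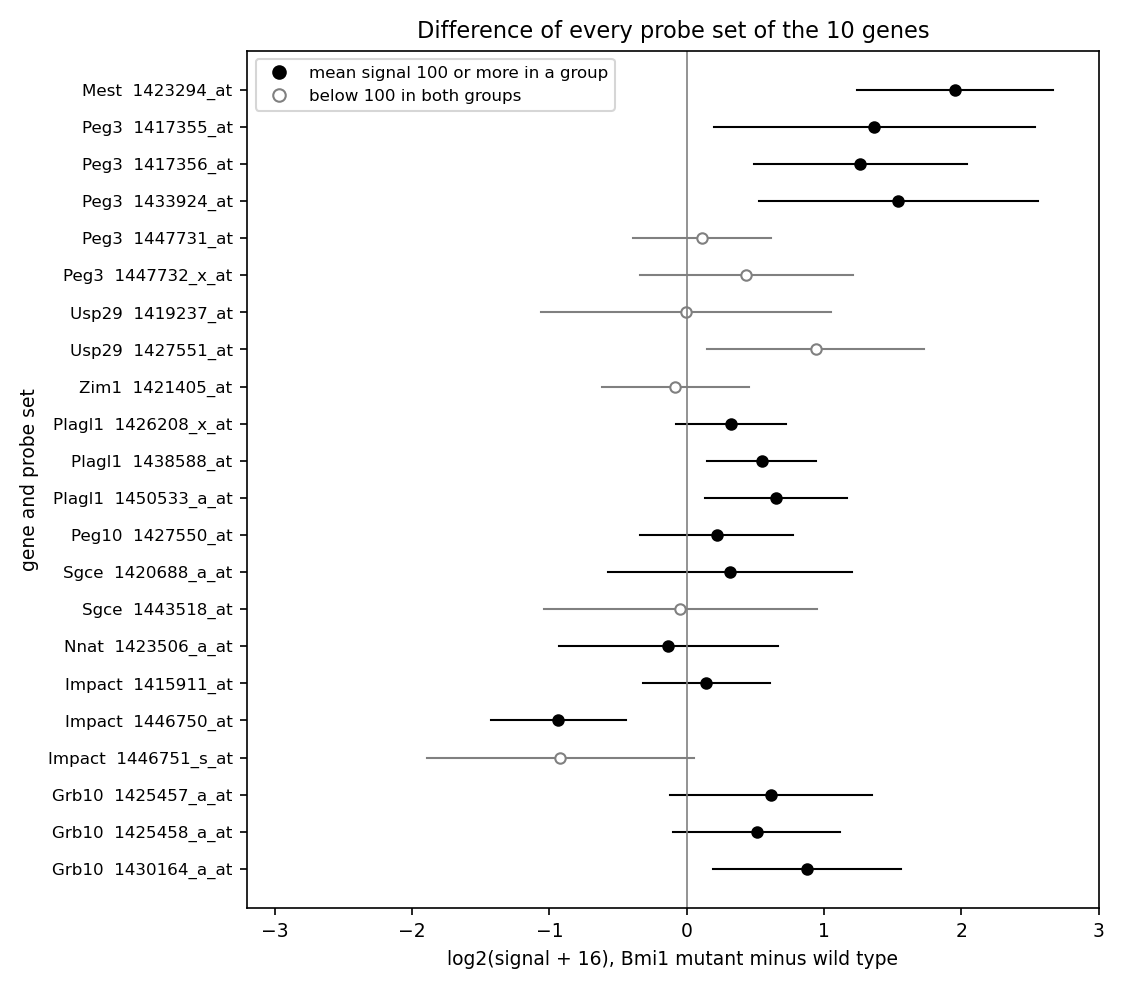
Difference of log2(signal + 16), Bmi1 mutant minus wild type, for each of the 22 probe sets, with limma's 95% intervals from the fit over all probe sets. Filled points reached a mean signal of 100 in at least 1 genotype and open points did not. Of the 15 filled points 13 lie above 0, and those below 0 are Nnat and Impact 1446750_at.

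Taken by probe set, 16 of 22 differences lay above 0 and 6 below, and of the 15 with a mean signal of 100 or more in a genotype 13 lay above and 2 below. Among the 6 genes with several probe sets, every difference of Peg3, Plagl1 and Grb10 lay above 0, and signs were mixed for Usp29, Sgce and Impact. In the limma fit over all 45037 probe sets, 0 of the 22 were called in either direction, against 0.187% called higher and 0.218% called lower among all probe sets. At an unadjusted p under 0.05 there were 9 of 22, against 13% of all probe sets. The arrays did not overlap in the higher direction for 8 of 22 (8.11% of all probe sets) and in the lower direction for 1 of 22 (10.8%). Probe sets of 1 gene share their RNA and are not separate evidence.

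**Figure D3:**
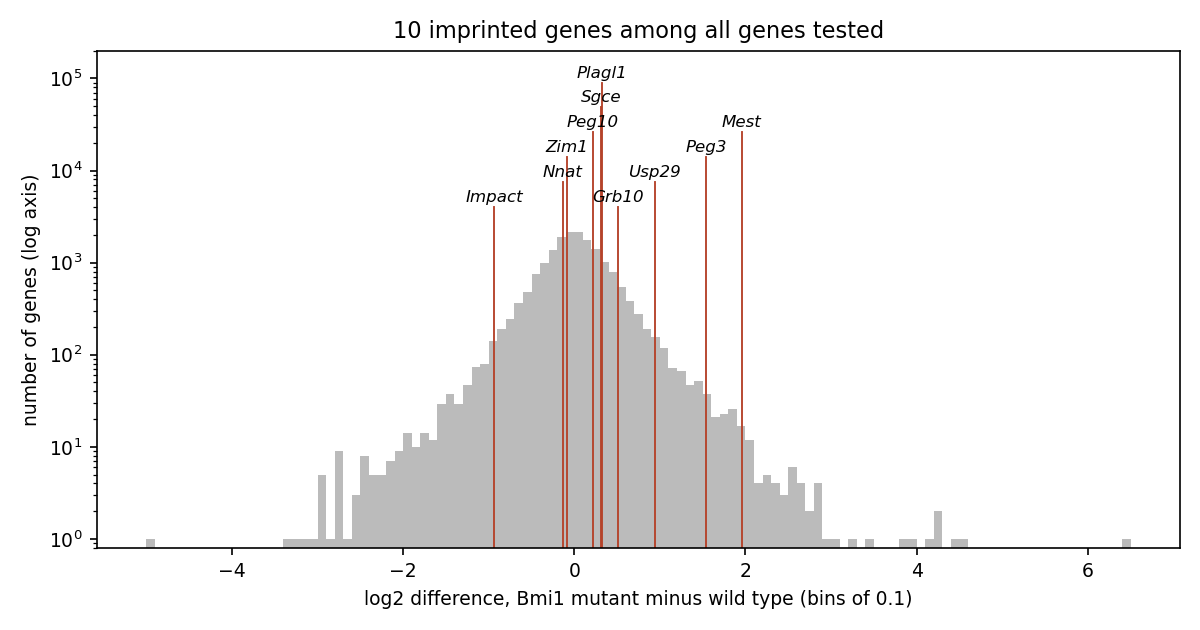
Number of genes, on a log axis, by log2 difference of Bmi1 mutant minus wild type in bins of 0.1, over all 18193 genes. Red lines mark the 10 imprinted genes, with heights set only to fit the names, from Impact at -0.93 to Mest at 1.95, and 5 of the 10 lie between -0.13 and 0.32.

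The 10 genes did not share 1 order of the arrays. Among wild-type arrays, replicate 1 was the highest for Mest, Peg3, Usp29, Peg10, Sgce and Grb10 (6 of 10), and replicate 3 was the highest for the other 4. Among mutant arrays, replicate 1 was the highest for Mest, Peg3, Zim1, Sgce and Grb10 (5 of 10) and the lowest for Plagl1, Peg10, Nnat and Impact (4 of 10). Mest, Peg3, Sgce and Grb10 thus had the same highest array in both genotypes, replicate 1.

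Among wild-type arrays, the mesenchymal markers had their highest level in replicate 1, as did Mest, Peg3, Sgce and Grb10. Among mutant arrays the 2 mesenchymal lists differed. The fibroblast sum was highest in replicate 2 (135000, against 134000 in replicate 1), where Mest, Sgce and Grb10 were lowest. The smooth muscle and pericyte sum was 18700 in replicate 1, 15600 in replicate 2 and 18100 in replicate 3. That is the order of Mest, Sgce and Grb10 but not of Peg3. These orders were compared after the values were seen, and 3 arrays are too few to tell a shared order from a coincidence. Of 24 measured fibroblast markers 23 had a higher mean in mutant arrays, and their summed signal was 127000 to 135000 in mutant arrays and 68000 to 115000 in wild-type arrays, highest in wild-type replicate 1 (115000) and lowest in wild-type replicate 3 (68000). Of 18 smooth muscle and pericyte markers 17 had a higher mean in mutant arrays, with sums of 15600 to 18700 in mutant and 5810 to 13200 in wild type, again highest among wild-type arrays in replicate 1. The collagen gene Col1a1 was the called one of the 24 (6066 ± 1006 in mutant, 2344 ± 467 in wild type, SD, n = 3 each, limma adjusted p = 0.0482, and 0.0725 to 0.160 without 1 array). Of all genes 0.412% were called higher. No marker of either list was at 0 or below a signal of 100 in every array. When the average log2 level of 23 fibroblast genes entered the fit as a term, Mest had a difference of 1.39 (limma adjusted p = 0.594) and Peg3 of 0.58 (adjusted p = 0.921), while Usp29 was at 0.55, Plagl1 at 0.38, Zim1 at 0.28, Grb10 at -0.03, Nnat at -0.04, Peg10 at -0.13, Sgce at -0.27 and Impact at -0.79 (adjusted p = 0.724). Among imprinted genes outside the group, Cdkn1c was at 2.94, Igf2 at 2.11, Rian at 1.94 and Magel2 at 1.46. That fit called 0 genes of 18193, with 1264 at an unadjusted p under 0.05. The fibroblast term was 11.84 to 11.86 in mutant arrays and 10.62 to 11.60 in wild-type arrays. It therefore largely followed genotype and varied within a group almost only among wild-type arrays. The fit cannot separate the term from genotype, and no conclusion about cell composition is drawn from it. In bulk RNA of sorted cells, more cells of a type and more RNA per cell cannot be told apart.

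**Figure D4:**
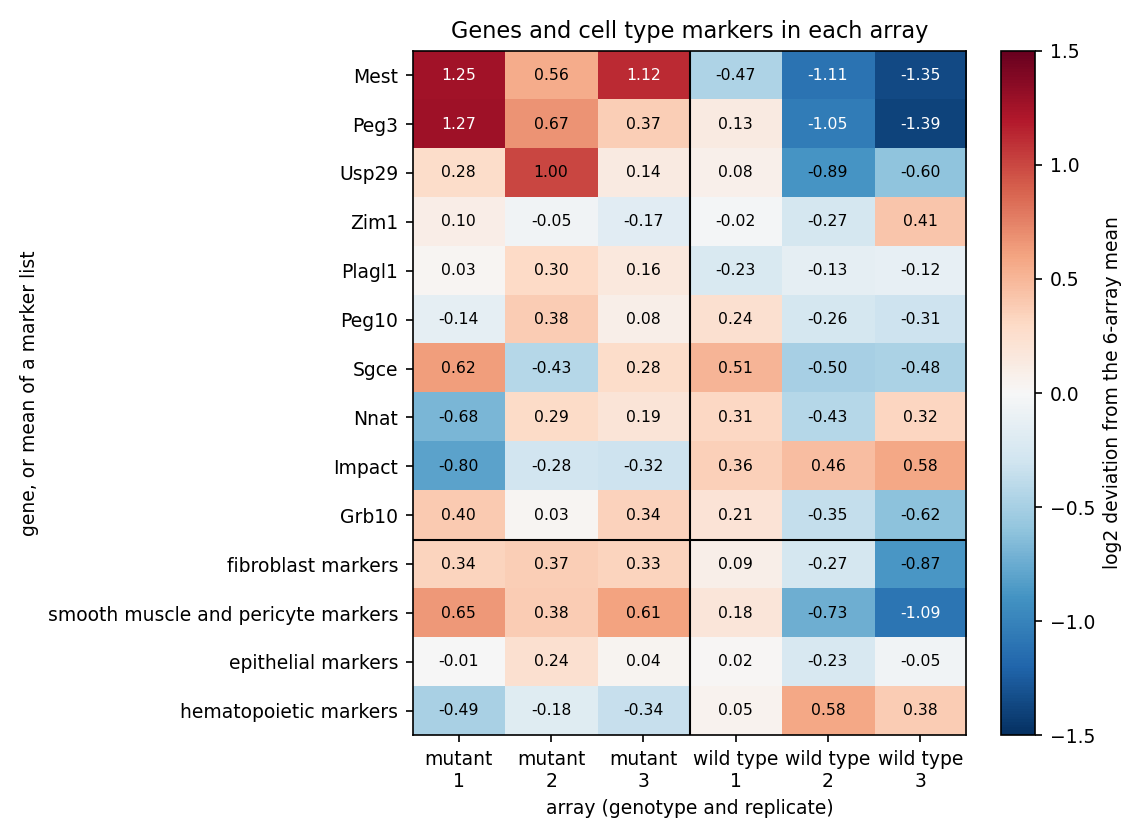
Log2 deviation from the mean of the 6 arrays for each of the 10 genes (upper block) and for the mean of 4 cell type marker lists (lower block), with Bmi1 mutant arrays left of wild-type arrays. Mest, Peg3 and both mesenchymal lists are lowest in wild-type replicates 2 and 3 and less low or above the mean in wild-type replicate 1, and Impact lies below its mean in all 3 mutant arrays.

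Other cell types were measured the same way. Epithelial markers had sums of 125000 to 136000 in mutant and 118000 to 123000 in wild type, with 16 of 19 higher in mean, and the defining genes Epcam (4200 ± 523 in mutant, 5203 ± 1407 in wild type) and Cdh1 (4282 ± 461 in mutant, 4039 ± 545 in wild type) were bright. Of 21 hematopoietic markers 5 were called lower (Ms4a1, Cd79b, Ncr1, Cd79a and Gzma, of which Ms4a1 alone kept the call without each single array), 0 were called higher, and 7 of 21 lay above 0. Of all genes 0.511% were called lower and 0.412% higher. The granulocyte and monocyte genes S100a8 (11760 ± 4114 in mutant, 4124 ± 739 in wild type, SD, n = 3 each), S100a9, Itgam and Csf3r read higher in every mutant array than in any wild-type array, with differences of 1.06 (Itgam) to 1.46 (S100a8) and limma adjusted p values of 0.0899 to 0.255. These 4 were chosen after their values were seen. Other myeloid genes of the list did not share this separation. Itgax read lower in every mutant array than in any wild-type array (difference -0.99, limma adjusted p = 0.0763). Marco (-0.38) and Adgre1 (-0.29) had lower means and Csf1r (0.25) a higher mean, with overlapping arrays. The 5 called genes are known from lymphocytes. The hematopoietic sums overlapped, with 70000 to 98400 in mutant and 71200 to 98900 in wild type. Adipocyte markers had sums of 10300 to 12000 in mutant and 13600 to 14600 in wild type, and the lipid droplet gene Cidec was called lower (difference -1.98, limma adjusted p = 0.0422, and 0.0703 to 0.160 without 1 array), while Adipoq read at most 54.7. Mesothelial markers had sums of 8320 to 9100 in mutant and 9510 to 10300 in wild type. The brightest of them, Krt19, weighs most in these sums and read 3688 ± 731 in mutant and 5293 ± 652 in wild type. Of the 9 mesothelial markers 5 lay above 0 and 4 below, with a median difference of 0.045, so no direction is given for them. Endothelial markers had sums of 24600 to 28800 in mutant and 20200 to 33900 in wild type, and glial and neuronal markers 698 to 928 in mutant and 789 to 870 in wild type. What part these cell types have in the values of the 10 genes was not tested, since the fibroblast covariate cannot be separated from genotype.

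Neighbouring genes on the same chromosomes gave 0 calls. Of 33 measured neighbours 19 lay above 0 and 14 below, with a median of 0.06. At an unadjusted p under 0.05 in the limma fit there were 4, against 14.5% of all genes. After Blcap, the smallest p was that of Klf14, an imprinted transcription factor gene near Mest, which read 70.7 ± 41.8 in mutant and 15.3 ± 2.86 in wild type (SD, n = 3 each, difference 1.34, adjusted p = 0.173). Without mutant replicate 2 it was 1.77 (adjusted p = 0.0587).

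Among imprinted genes elsewhere, 2 of 16 measured genes known as paternally expressed were called higher (0.412% of all genes) and 0 lower (0.511% of all genes). Their median difference was 0.37, against 0.006 over all genes. The 2 called genes were the growth factor gene Igf2 (1784 ± 370 in mutant, 311 ± 132 in wild type, difference 2.52) and Magel2, of the Prader-Willi domain (74.2 ± 10.8 in mutant, 19.9 ± 4.02 in wild type, difference 1.33). Of 23 measured genes known as maternally expressed 2 were called higher and 0 lower, with a median of 0.20: the cell cycle inhibitor gene Cdkn1c (5190 ± 1783 in mutant, 625 ± 51.8 in wild type, difference 2.97) and the noncoding RNA Rian (567 ± 201 in mutant, 74.5 ± 32.7 in wild type, difference 2.69; SD, n = 3 each). Leaving out 1 array at a time, Magel2 (limma adjusted p = 0.0703 to 0.123) and Rian (0.0528 to 0.134) lost the call each time, Igf2 lost it without any array but wild-type replicate 1 (0.0450 to 0.113), and Cdkn1c lost it without wild-type replicate 2 or 3 (0.0174 to 0.0663). In the imprinted gene network, which PLAGL1 is known to control and which counts Mest, Peg3, Plagl1, Sgce and Grb10 among its 14 measured genes, 3 were called higher (Cdkn1c, Igf2 and Mest) and 0 lower, with a median of 0.96. Arrays did not overlap in the higher direction for 7 of the 16, 5 of the 23 and 8 of the 14 genes (10.4% of all genes). In the lower direction this held for 0, 2 and 0 of them (10% of all genes). The lists overlap, and the study is known to concern imprinted loci in these samples, so the counts are not independent evidence of a direction.

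Factors known to maintain or read imprints had 0 calls among 22 measured genes, with 6 above 0, 16 below and a median of -0.19. At an unadjusted p under 0.05 in the limma fit there was 1, against 14.5% of all genes. Arrays did not overlap in the lower direction for 6 (10% of all genes) and in the higher direction for 0 (10.4% of all genes). Uhrf1, which brings DNA methyltransferase to replicating DNA, had the smallest p, with 195 ± 27.7 in mutant and 374 ± 132 in wild type (SD, n = 3 each, difference -0.84, limma adjusted p = 0.210), and was followed by the chromatin remodeller Hells (difference -0.34, adjusted p = 0.409). Without wild-type replicate 3, which had the highest Uhrf1 signal (527), the difference was -0.58.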

How the data were processed

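RNA of sorted lung cells was measured on 6 arrays, 3 Bmi1 mutant and 3 wild type. Deposited by the authors was a linear intensity per probe set. Per the submitters' processing notes, Affymetrix Expression Console 1.1 was used, and how it summarised probes or treated background is not given in the sources used here. The mean intensity of each array, trimmed by a share of 0.02 at each tail, was 500 in the deposited values, and arrays held to 1 mean cannot show a shift of all genes. With 3 arrays a genotype, precision is limited by their number. Signals under 100, called dim here, made up 47.7% to 50.3% of an array.

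Of 45101 probe sets 64 controls were left out. By the platform annotation 34945 carried 1 gene symbol, 932 several and 9160 none, and 0 of those with several named 1 of the 10 genes. Values were turned to log2(signal + 16). The probe set with the highest mean stood for a gene, which gave 18193 genes, and a second fit took all 45037 probe sets. Both were fitted in R 4.3.3 with limma 3.58.1 (lmFit, then eBayes), with Benjamini-Hochberg adjustment over all features.

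The genes, lists and alternatives were chosen with earlier results of these data known. Text names all members, called genes of each list or otherwise the 2 with the smallest p, Bmi1, and up to 2 defining genes and the called ones of each marker list. The measured myeloid genes of the hematopoietic list, rising and falling, and the mesothelial marker Krt19 are named outside this rule, after their values were seen. Simulated arrays were used to test the fit: with 200 of 18193 genes changed, 69% of those changed by a log2 of 2 were recovered, and with 200 of 45037 probe sets changed, 52.2% were. Of those changed by a log2 of 1, 23.8% of genes and 3.8% of probe sets were recovered. A gene that was not called may therefore still have changed by such an amount. Sequences and positions come from RefSeq tables of GRCm38.p6, and figures were drawn with matplotlib 3.10.9.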

Additional observations from a re-analysis of the deposited data

How the results depend on the processing

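The counts rest on a small number of arrays. Over 18193 genes limma called 75 higher and 93 lower, 119 and 88 with median centring (a higher share of rises), 12 and 21 when the offset was 1, 120 and 145 when it was 64, 133 and 151 among features above the median level, 213 and 225 with a trended robust prior, 229 and 226 at an adjusted p under 0.1, and 0 and 0 with the fibroblast covariate. With the replicate number as a block limma called 0 higher and 0 lower genes (2611 at an unadjusted p under 0.05), 0 of the 10 genes and 0 of the 22 probe sets. Deviations of same-numbered arrays correlated at 0.073, 0.048 and 0.032, so the numbers are not taken to pair the samples. Each array had its highest correlation with its own number. Leaving out 1 array at a time gave 1 (without wild-type replicate 2) to 35 higher and 1 to 41 lower genes, and 0 called members in each of the 6 fits. The 1 call among the 10 genes, Mest, became 0 with an offset of 1 (adjusted p = 0.102), the block (0.0874) and the fibroblast covariate (0.594), and Mest kept its direction in 18 of 18 alternatives. Its call held in 8 of the 17 at the same threshold. Impact was called lower (1 gene) among features above the median level (adjusted p = 0.0384) and at an adjusted p under 0.1. Of the 22 probe sets, 1 (Mest) was called higher among features above the median level, with the trended robust prior, with array weights and at an adjusted p under 0.1. The median of the 10 genes ran from 0.129 (fibroblast covariate) to 0.520 (without wild-type replicate 1).

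These signs turned, all for values that were not called. With the fibroblast covariate Zim1 was at 0.284, Peg10 at -0.132, Sgce at -0.265, Grb10 at -0.026, Grb10 1425457_a_at at -0.005 and Impact 1415911_at at -0.072. With the probe set of greatest variance, which was dim for both genes, Sgce was at -0.047 and Igf1r at -0.015. Zim1 was at 0.013 with median centring. Leaving out 1 array at a time, Zim1 ran from -0.236 to 0.105, Nnat from -0.383 to 0.174, Peg3 1447731_at from -0.069 to 0.208, Usp29 1419237_at from -0.476 to 0.272 and Sgce 1443518_at from -0.494 to 0.189. Usp29 1419237_at was at 0.017 with quantile normalization, 0.090 with median centring, 0.022 with an offset of 64, and 0.095 with array weights. Sgce 1443518_at was at 0.047 with median centring and 0.005 with an offset of 64. The cause was not tested. Usp29 and Zim1 stayed below a signal of 100 in every array, which limits what these arrays can show of them.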
